A study of Mus musculus with 2 samples.

Results

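Complement and clotting proteins are plasma proteins that the liver makes and releases in inactive form. The 44 genes described here were chosen by name: each is a row of both deposited count files, and together they are 44 of 24421 genes. They cover the lectin, classical, alternative and terminal arms of complement, the clotting factors, fibrinogen, the anticoagulants and the enzymes that dissolve clots. Liver RNA came from male C57BL/6 mice that were 6 weeks old at the start of a high-fat diet and ate it for 12 weeks. The control library was from mice with floxed Rora alleles (RORα f/f). The other library was from RORα f/f mice that also carried Alb-Cre, and is labelled a liver-specific knockout (LKO). RORα is a nuclear receptor that binds DNA. The albumin promoter drives Cre in hepatocytes, so cells such as Kupffer cells and endothelial cells keep their Rora alleles. Whether a library held RNA from 1 animal or from a pool is not stated in the labels.

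In complement, mannose-binding lectins and the C1 complex recognise a surface and start protease cascades, which meet at the cleavage of C3. The terminal proteins C5, C6, C7, C8 and C9 then assemble into the membrane attack complex, a pore in the target membrane. In clotting, the contact and tissue factor routes activate factor X, which turns prothrombin into thrombin, and thrombin turns fibrinogen into fibrin. Hepatocytes make most of these proteins, while factor VIII, von Willebrand factor and thrombomodulin are made largely by endothelial cells and properdin by myeloid cells. In mice, several terminal complement proteins are known to circulate at higher levels in males than in females.

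Counts summed to 128201591 in the control and 131843686 in the library labelled LKO. Levels are CPM, read counts relative to a library total that was scaled with TMM (the trimmed mean of M-values of edgeR), and a gene was measured at a mean of at least 1 CPM with a summed count of at least 20. Where 2 values are given for a gene, the control library comes first. All 44 members were measured, as were 11137 genes in all. Rora had 3701 and 3677 counts, or 33.4 and 24.1 CPM, so its total was not lost in the library labelled LKO. The labels do not name the floxed exons, so this total checks the label only in part. With 1 library per genotype there is no replicate and no test: every ratio compares these 2 libraries, and its 95% exact interval covers counting error only. Total-count scaling would raise every log2 ratio by 0.42, and would leave 15 instead of 38 members below a ratio of 1, so results are given with it where it matters.

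The terminal arm of complement and the clotting factor F11 stood lower in the library labelled LKO, while most other members lay within 1.5-fold. Of the 44 members, 11 (25%) were at least 1.5-fold lower with a ratio of 1 outside the interval, against 9.76% of all measured genes. Only Vwf, or 2.27%, was at least 1.5-fold higher, against 10.5%. At 2-fold, 5 members were lower (11.4%, against 2.62%) and 0 were higher (against 3.83%). With total-count scaling 5 were at least 1.5-fold lower (against 2.53%) and 5 higher (against 34.6%). At 2-fold these counts were then 2 lower, C8b and F11 (against 1.07%), and 1 higher, Vwf (against 10.8%). The median log2 ratio over the members was −0.23, beside −0.003 over all measured genes. The sign of this small shift depended on the scaling: the median was 0.18 with total-count scaling, and 11 measured hepatocyte markers, among them Alb, Ttr and Apoa1, had a median of −0.37. In bulk liver, fewer cells of a type and less RNA per cell cannot be told apart.

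**Figure D1:**
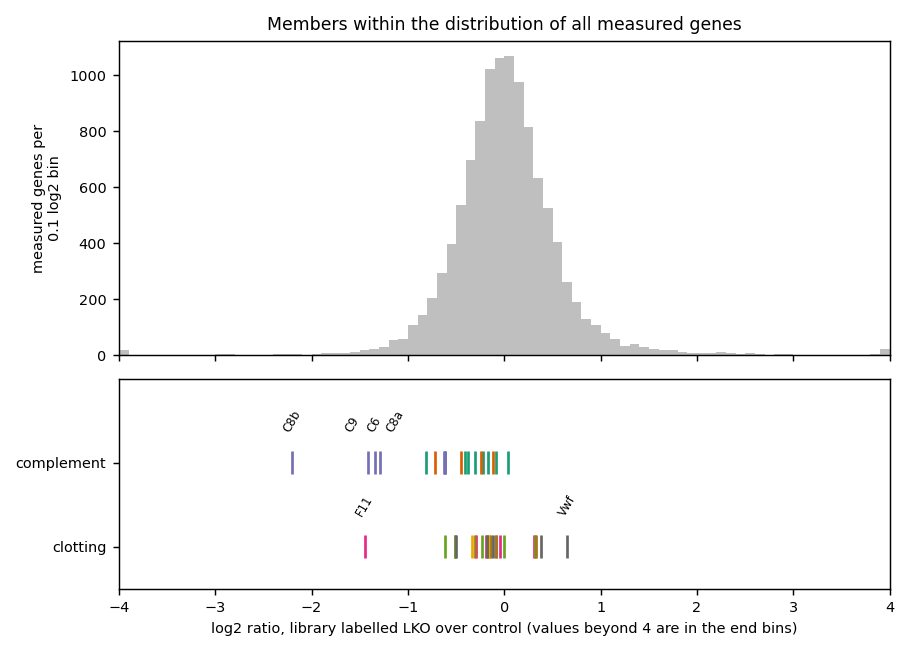
Upper panel: measured genes (vertical axis) per 0.1-wide bin of the log2 ratio of the library labelled LKO over control (horizontal axis, values beyond 4 in the end bins). Lower panel: each tick is 1 of 19 complement or 25 clotting genes, coloured by role. C8b, C9, C6, C8a and F11 lie in the left tail, and the other members lie between −0.81 and 0.66.

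The terminal pathway genes were lower together with TMM scaling. All 7 of its genes among the members were at least 1.5-fold lower, against 9.76% of all measured genes, with a median log2 ratio of −1.29. With total-count scaling the median was −0.87, and only C6, C8a, C8b and C9 of the group were called lower, against 2.53%. The terminal group, which includes Vtn, was set with earlier results of these data known. C8b, which encodes the β chain of C8, had 12606 counts in the control and 3771 in the library labelled LKO. In CPM the values were 114 and 24.7, which is 4.60-fold (interval 4.43 to 4.77) lower. Only 0.503% of measured genes had a smaller ratio. C8a, the α chain that inserts into the membrane, stood at 264 and 107 CPM, 2.45-fold (interval 2.41 to 2.50) lower. C8g, a small lipocalin chain that is linked to the α chain, stood at 696 and 454 CPM, 1.53-fold (interval 1.52 to 1.55) lower. So the 3 chains of the same protein were lower by unequal amounts. Fbxw5 overlaps C8g on the opposite strand, with 1870 and 2826 counts.

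C9, whose copies polymerise into the wall of the pore, stood at 242 and 91.1 CPM, 2.66-fold (interval 2.61 to 2.72) lower. C6, which binds activated C5 and starts the assembly, stood at 119 and 47.0 CPM, 2.54-fold (interval 2.47 to 2.61) lower. Hc, the mouse gene for C5, was less far apart at 364 and 237 CPM, 1.53-fold (interval 1.51 to 1.56) lower. Vtn encodes vitronectin, an adhesion protein of plasma that also blocks pore assembly. It stood at 1574 and 1020 CPM, 1.54-fold (interval 1.53 to 1.55) lower. C7, the remaining pore component and no member here, was below the filter with 56 and 59 counts, and its ratio could not be told from 1 (0.766, interval 0.522 to 1.12).

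The size of these differences depended on the scaling, and for C8b, C6, C8a and C9 the 1.5-fold call did not. Over 6 scalings C8b was 3.44-fold to 4.64-fold lower, C9 1.99-fold to 2.69-fold, C6 1.90-fold to 2.56-fold and C8a 1.83-fold to 2.48-fold. Hc, C8g and Vtn kept a ratio below 1 under all 6, but were only 1.15-fold lower with total-count scaling and so left the call. C8g also left it when ratios were taken relative to genes of like length and GC content. In raw counts the terminal genes made up 0.292% of the control library (Wilson interval 0.291 to 0.292) and 0.229% (interval 0.228 to 0.230) of the library labelled LKO. All 44 members held 1.66% and 1.78% of counts.

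Ratios between genes inside a library need no scaling. Their changes restate the differences between the genes' ratios above, and are no further check of them. Per kb of transcript, C8b stood at 0.697 of C8a in the control and 0.372 in the library labelled LKO, a 1.87-fold (interval 1.80 to 1.95) smaller ratio. Against C8g, C8b was lower by a factor whose interval ran from 2.89 to 3.12, and C8a 1.60-fold (interval 1.57 to 1.64) lower. Against Hc, C6 was 1.65-fold (interval 1.60 to 1.71) lower. C9 was 1.73-fold (interval 1.69 to 1.78) lower against Hc. C6 and C9 themselves kept nearly the same ratio to each other, at 0.351 and 0.367 per kb.

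**Figure D2:**
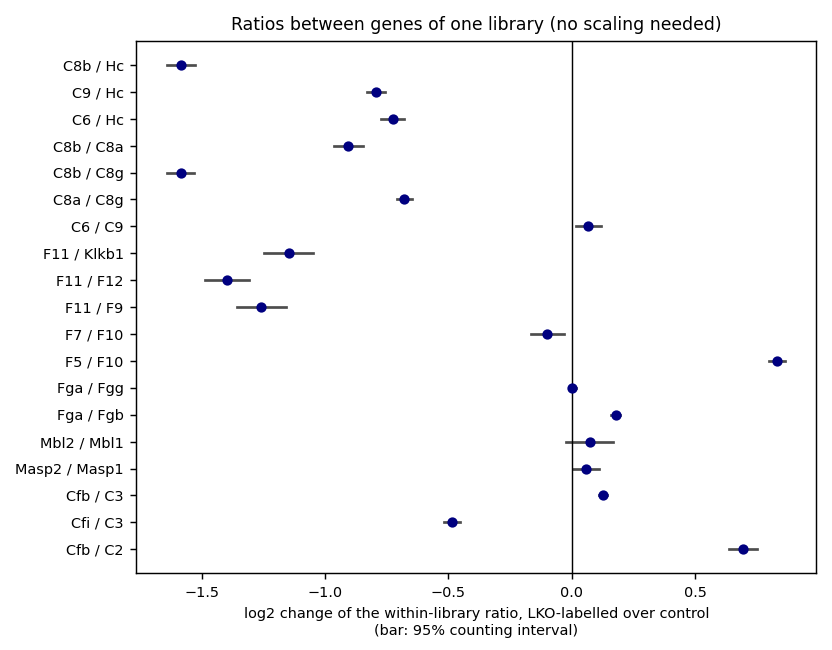
Each point is the log2 change, library labelled LKO over control, of the ratio between 2 genes of the same library (horizontal axis), with the gene pairs on the vertical axis and 95% counting intervals as bars. Ratios of C8b and F11 to their partners lie farthest to the left, and Fga against Fgg lies at 0.00.

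These genes lie at separate places in the genome (mm10, gene models of GENCODE M21). C8b spans chr4:104766317-104804548 on the plus strand and C8a chr4:104815679-104876398 on the minus strand, 11131 bases apart. C6 lies at chr15:4727175-4814967 and C9 at chr15:6445327-6498751, both on the plus strand. F11 lies at chr8:45241174-45262031 on the minus strand. All are annotated as protein coding. The nearest other measured gene to the C8 pair, Prkaa2, lies 153476 bases from C8a and had a log2 ratio of −0.03. Dab1, closer at 21473 bases from C8b, was below the filter with 65 and 4 counts, also lower. Dab2, 4615 bases from C9, had a log2 ratio of 0.00. C6 has no measured neighbour within 250 kb. No neighbour within 250 kb had a count difference within 5% of that of C8b, C8a, C6, C9 or F11. Among the other members, C1ra with Phb2 and Tfpi with Gm13710 did.

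RefSeq (GRCm38.p6) gave promoter windows, from 250 bases before to 50 after an annotated start, for 34 of the 44 genes. Not matched were C2, C4b, Cfb, Cfi, Kng1, Masp1, Plg, Proc, Thbd and Vwf. The windows of the 5 genes that were lowest are printed because these genes stood low together. They lie at chr4:104766067-104766366 (plus strand), chr15:4726960-4727259 (plus), chr4:104876349-104876648 (minus), chr15:6445096-6445395 (plus) and chr8:45261982-45262281 (minus). Each is written 5′ to 3′ on the strand of the gene, and capitals mark AGGTCA on either strand, the core site of many nuclear receptors, or TAGGTCA, which adds the T of the ROR response element.
C8b: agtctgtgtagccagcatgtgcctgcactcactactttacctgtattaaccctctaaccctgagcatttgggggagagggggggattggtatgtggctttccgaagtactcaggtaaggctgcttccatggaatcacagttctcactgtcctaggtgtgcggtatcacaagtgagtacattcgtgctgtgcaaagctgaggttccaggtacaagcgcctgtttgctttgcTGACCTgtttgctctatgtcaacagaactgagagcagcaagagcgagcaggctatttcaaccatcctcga
C6: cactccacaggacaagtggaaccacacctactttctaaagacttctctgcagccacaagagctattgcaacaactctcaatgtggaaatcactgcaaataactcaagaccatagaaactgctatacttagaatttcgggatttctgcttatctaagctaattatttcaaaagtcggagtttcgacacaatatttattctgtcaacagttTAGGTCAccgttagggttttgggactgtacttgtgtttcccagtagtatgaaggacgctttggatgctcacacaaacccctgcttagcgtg
C8a: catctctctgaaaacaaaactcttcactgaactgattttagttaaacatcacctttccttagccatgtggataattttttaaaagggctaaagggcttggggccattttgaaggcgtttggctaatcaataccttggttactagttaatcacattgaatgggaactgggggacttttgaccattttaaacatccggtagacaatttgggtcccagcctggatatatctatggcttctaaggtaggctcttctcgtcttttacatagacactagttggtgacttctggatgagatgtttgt
C9: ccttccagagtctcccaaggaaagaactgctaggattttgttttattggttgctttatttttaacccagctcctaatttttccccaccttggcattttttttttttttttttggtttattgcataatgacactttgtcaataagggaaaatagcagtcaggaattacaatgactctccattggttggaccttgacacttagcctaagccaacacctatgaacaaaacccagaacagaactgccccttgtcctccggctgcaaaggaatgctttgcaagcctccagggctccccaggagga
F11: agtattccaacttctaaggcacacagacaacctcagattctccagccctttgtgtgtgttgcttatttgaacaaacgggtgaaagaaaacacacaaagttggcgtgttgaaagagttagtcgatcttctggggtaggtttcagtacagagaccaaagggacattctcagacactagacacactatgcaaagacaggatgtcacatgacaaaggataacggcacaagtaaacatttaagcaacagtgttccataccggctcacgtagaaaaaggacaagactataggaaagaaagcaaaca
C8b holds AGGTCA on the opposite strand, 20 bases before the RefSeq start, and C6 holds TAGGTCA, whose AGGTCA begins 40 bases before the start. The windows of C8a, C9 and F11 hold neither.

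AGGTCA (both strands) was in 15 of 38 member windows (39.5%), from 14 genes, against 16.3% of 32851 windows of the same length over all genes. TAGGTCA, which overlaps it, was in 3 member windows (7.89%), against 2.61%. Of these 3, 2 are overlapping windows of Tfpi2 that share the match. In 8 genes a match lay 20 to 57 bases before the start. The share of all windows with a match in this range was not computed, so this count has no background. The 6 of these that are not shown above follow, with 15 bases on either side and the match in capitals, to let the spacing and flanks be compared. They lie at chr2:91636470-91636505 (minus strand), chr1:164151763-164151798 (plus), chr8:13025985-13026020 (plus), chr8:13037263-13037298 (plus), chr19:30232866-30232901 (plus) and chr6:3988968-3989003 (minus).
F2: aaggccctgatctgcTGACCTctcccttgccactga
F5: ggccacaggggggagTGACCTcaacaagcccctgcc
F7: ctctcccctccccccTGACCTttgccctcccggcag
F10: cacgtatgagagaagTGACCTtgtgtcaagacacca
Mbl2: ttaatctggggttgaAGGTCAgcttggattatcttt
Tfpi2: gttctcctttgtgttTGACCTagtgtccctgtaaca
The core site was in 3 of 9 genes called lower that have a window and in 11 of the 25 others. Its carriers run from C8b, with a log2 ratio of −2.20, to Hgfac with 0.38. CAAAGTCCA (HNF4) and TTGCGCAA (C/EBP), each searched on both strands, were in 0 member windows and in 0.475% and 0.183% of all windows. At shares this small, 0 of 38 windows does not set the members apart. Only these exact letters were searched, so other forms of either site would be missed. An HNF1 site was planned as well and was left out of the search. A match of letters is a description of the window and no evidence of binding.

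The lectin and classical genes, which start complement on a surface, lay close together apart from C2. Of 8 members 1 was at least 1.5-fold lower, a share close to the 9.76% of all measured genes. The median log2 ratio was −0.27, or 0.15 with total-count scaling. C2 is the protease of the C3 convertase that this route builds. It had 6248 and 4904 counts, or 56.4 and 32.2 CPM, 1.75-fold (interval 1.69 to 1.82) lower. With total-count scaling it was 1.31-fold lower and not called. Its alternative pathway counterpart Cfb lies 86 bases away and stood at 626 and 578 CPM. Cfb had a log2 ratio of −0.11, or 0.31 with total-count scaling. The ratio of Cfb to C2 per kb was 10.7 in the control and 17.3 in the library labelled LKO, 1.62-fold (interval 1.56 to 1.68) larger. An annotated transcript, Gm20547, overlaps both C2 and Cfb, so some reads may not belong to either gene alone.

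The mannose-binding lectin genes Mbl1 and Mbl2 stood at 19.1 and 14.6 CPM and at 99.2 and 80.0 CPM. Their ratio to each other per kb, 7.47 and 7.85, did not differ beyond counting error (interval of the change 0.985 to 1.12). The lectin proteases Masp1 and Masp2 had log2 ratios of −0.22 and −0.17, and C1ra, a protease of the C1 complex, had −0.09. C4b, which covalently tags surfaces, stood at 597 and 614 CPM, with a log2 ratio of 0.04. C4bp, the inhibitor that binds C4b, was 1.33-fold (interval 1.31 to 1.35) lower at 249 and 188 CPM. Apart from C4b these ratios turn positive with total-count scaling. C4a, a close copy of C4b with 10619 and 13955 counts, and C1rb, a close copy of C1ra with 5096 and 6786, can share reads with them. Tardbp overlaps Masp2 on the opposite strand with 20998 and 31626 counts, and strand use is not known.

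C3, where all routes meet, stood at 2818 and 2387 CPM, 1.18-fold (interval 1.17 to 1.19) lower, and 1.13-fold higher with total-count scaling. Cfi, the protease that inactivates C3b and C4b, stood apart at 154 and 93.1 CPM, 1.65-fold (interval 1.62 to 1.69) lower. With total-count scaling it was 1.23-fold lower and no longer called. Its ratio to C3 per kb was 0.135 and 0.0963, 1.40-fold (interval 1.37 to 1.43) smaller. Cfp, or properdin, stabilises the alternative convertase and comes from myeloid cells. With TMM scaling it stood at 18.9 and 13.8 CPM, 1.37-fold (interval 1.28 to 1.45) lower. It had 2092 and 2108 counts, and was nearly level with total-count scaling, at a log2 ratio of −0.03. Macrophage markers, like Cfp, stood lower with TMM scaling: 7 of 10 measured were at least 1.5-fold lower, against 9.76% of all measured genes. The median log2 ratio of these markers was −0.68, or −0.26 with total-count scaling. The summed level of the 11 listed was 188 CPM in the control and 122 CPM in the library labelled LKO. Their part in the level of Cfp was not tested.

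**Figure D3:**
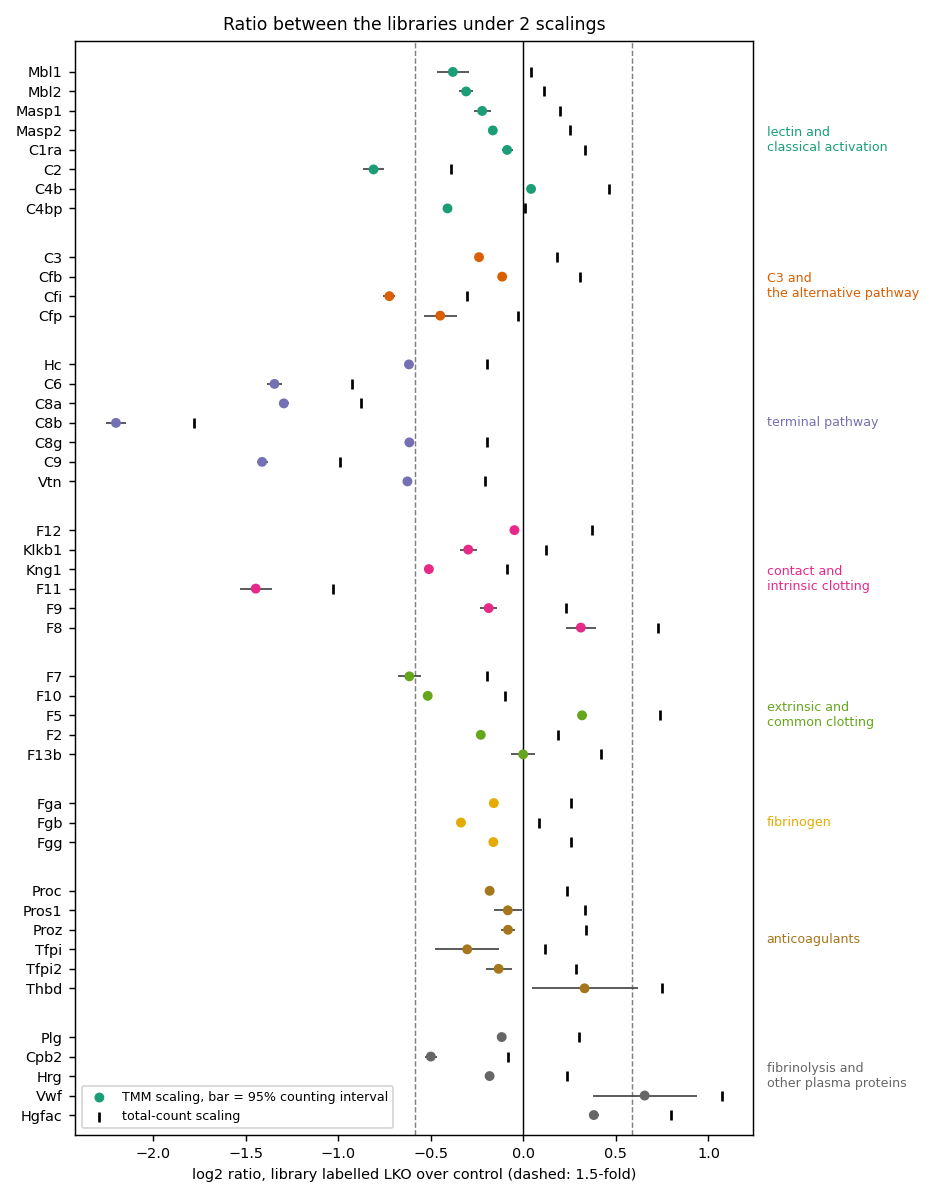
Log2 ratio of the library labelled LKO over control (horizontal axis) for each of 44 genes (vertical axis), grouped and coloured by role. Dots are TMM-scaled with 95% counting intervals, black ticks use total counts, and dashed lines mark 1.5-fold. The terminal genes and F11 lie to the left under both scalings, while most other genes cross 0 between the scalings.

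Among the contact and intrinsic clotting genes, F11 stood alone at 2-fold. Factor XI amplifies clotting once thrombin has formed. Its gene had 3167 counts in the control and 1599 in the library labelled LKO, or 28.6 CPM against 10.5 CPM, which is 2.72-fold (interval 2.56 to 2.90) lower. Over 6 scalings it was 2.04-fold to 2.75-fold lower. Klkb1, the related gene of plasma prekallikrein that lies 4658 bases away, stood at 64.8 and 52.7 CPM with a log2 ratio of −0.30, which is 0.12 with total-count scaling. The ratio of F11 to Klkb1 per kb was 1.03 in the control and 0.467 in the library labelled LKO, 2.22-fold (interval 2.07 to 2.37) smaller.

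F12, which starts contact activation, was nearly level at 201 and 194 CPM, with a log2 ratio of −0.05, or 0.37 with total-count scaling. F9, the vitamin K-dependent factor downstream of F11, stood at 62.9 and 55.2 CPM, with −0.19, or 0.23 with total-count scaling. Kng1, the source of bradykinin, had the highest level of the members per kb in both libraries, at 1372 and 963 CPM per kb. It was 1.42-fold lower, and 1.07-fold lower with total-count scaling. It has 3 RefSeq transcripts, and reads counted once for each would raise its level. Kng2, a second kininogen gene at chr16:22985854-23029482, had 70527 and 30334 counts and was 3.20-fold (interval 3.16 to 3.24) lower. It is outside the 44 genes and was singled out after its value was seen. As the kininogen genes are close copies, reads can be split between them.

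F8, the cofactor of F9, was higher at 17.5 and 21.6 CPM, 1.24-fold (interval 1.17 to 1.31), and 1.66-fold with total-count scaling. It is made largely by sinusoidal endothelial cells. The 12 endothelial markers were all measured. With TMM scaling 0 were at least 1.5-fold apart, beside 10.5% higher and 9.76% lower of all measured genes. Their median log2 ratio was 0.14, or 0.56 with total-count scaling, and their summed level was 461 and 545 CPM. Their part in the level of F8 was not tested.

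In the tissue factor route and the common route, F7 and F10 stood lower and F5 higher. F7, which tissue factor activates, stood at 39.3 and 25.6 CPM, 1.53-fold (interval 1.47 to 1.60) lower, just past the threshold, and 1.15-fold lower with total-count scaling. F10 and Proz follow F7 on the same strand of chromosome 8. F10 stood at 289 and 202 CPM, 1.43-fold (interval 1.41 to 1.45) lower, just short of the threshold, and 1.07-fold lower with total-count scaling. Proz, whose product speeds the inhibition of factor Xa, was nearly level, with a log2 ratio of −0.08, or 0.34 with total-count scaling. Per kb, the ratio of F7 to F10 was 0.183 and 0.171, while that of Proz to F10 was 0.233 and 0.315, 1.35-fold (interval 1.31 to 1.39) larger. Neighbouring genes of this cluster thus did not share 1 ratio.

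F2, or prothrombin, stood at 582 and 496 CPM, with a log2 ratio of −0.23, or 0.19 with total-count scaling. F5, the cofactor that speeds thrombin formation, was on the other side at 208 and 259 CPM, 1.25-fold (interval 1.23 to 1.27) higher, and 1.67-fold with total-count scaling. Against F10, F5 was 1.78-fold (interval 1.74 to 1.82) higher inside the libraries. F13b, the carrier chain of the fibrin-linking factor XIII, had 3250 and 4467 counts and the same level after TMM scaling, 29.3 CPM in both. With total-count scaling F13b was 1.34-fold higher. The 7 vitamin K-dependent members, F2, F7, F9, F10, Proc, Pros1 and Proz, had log2 ratios from −0.62 to −0.08. Of them 1 passed 1.5-fold, on the lower side, beside 9.76% lower and 10.5% higher of all measured genes. With total-count scaling 5 of the 7 were above 0 and the median was 0.23. Then 0 passed 1.5-fold, beside 2.53% lower and 34.6% higher.

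The 3 fibrinogen chains, which assemble into 1 protein, lay close together. Fga had 181338 and 223313 counts, or 1636 and 1465 CPM. Fgb had 61856 and 67355 counts, or 558 and 442 CPM, and Fgg had 157188 and 193239 counts, or 1418 and 1267 CPM. The ratio of Fga to Fgg per kb was 0.776 and 0.778, and the change did not differ beyond counting error (interval 0.993 to 1.01). Fgb stood slightly lower than the others: the ratio of Fga to Fgb per kb was 4.32 and 4.88, 1.13-fold (interval 1.12 to 1.15) larger. The log2 ratios were −0.16, −0.34 and −0.16 for Fga, Fgb and Fgg, and they were 0.26, 0.08 and 0.26 with total-count scaling. The share of raw counts was 0.312% (Wilson interval 0.311 to 0.313) in the control library and 0.367% (interval 0.366 to 0.368) in the library labelled LKO.

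**Figure D4:**
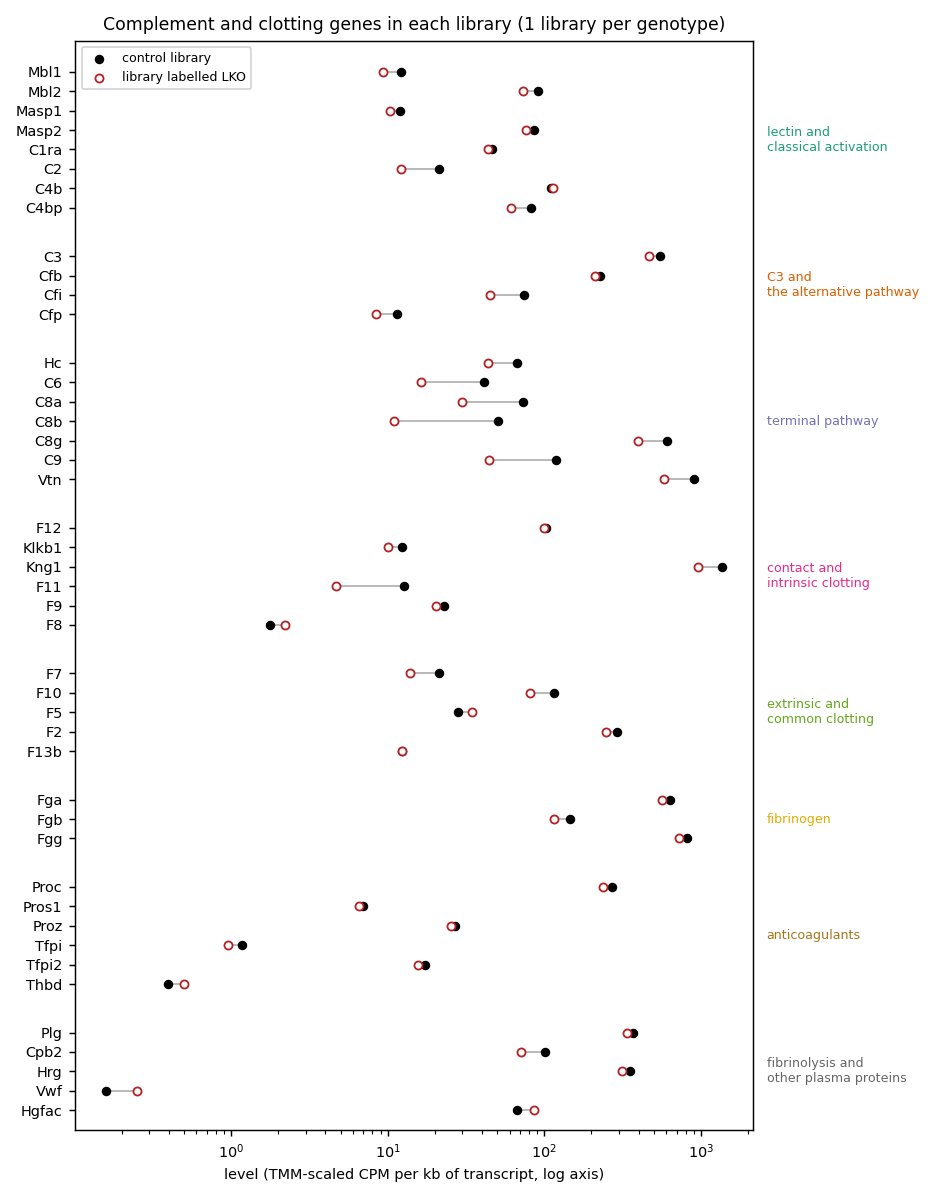
Level in TMM-scaled CPM per kb of transcript (horizontal log axis) of each of 44 genes (vertical axis) in the control library (filled) and the library labelled LKO (open), joined by a line and grouped by role. Levels span from Vwf at 0.159 and 0.251 to Kng1 at 1372 and 963, and the longest lines belong to C8b, C9, C6, C8a and F11. For F13b the open symbol covers the filled one.

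Of the 6 anticoagulant genes, 0 were at least 1.5-fold apart with TMM scaling, beside 10.5% higher and 9.76% lower of all measured genes. With total-count scaling Thbd alone was, beside 34.6% higher and 2.53% lower. So few genes do not set the group apart from these shares. Proc, the gene of protein C, stood at 427 and 376 CPM, and Pros1, its cofactor protein S, at 23.0 and 21.7 CPM, with log2 ratios of −0.18 and −0.08. Tfpi and Tfpi2, Kunitz-type protease inhibitors, had log2 ratios of −0.30 and −0.13. These 4 log2 ratios are positive with total-count scaling. Thbd, the endothelial thrombin receptor that activates protein C, had only 163 and 282 counts and was 1.26-fold (interval 1.03 to 1.53) higher, or 1.68-fold with total-count scaling.

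Among fibrinolysis and other plasma proteins, Plg, the precursor of plasmin, stood at 1013 and 934 CPM, and Hrg, which binds plasminogen and heparin, at 614 and 541 CPM. Their log2 ratios were −0.12 and −0.18, and both turn positive with total-count scaling. Cpb2, a carboxypeptidase that protects fibrin from plasmin, was 1.41-fold (interval 1.38 to 1.45) lower at 149 and 105 CPM, and 1.06-fold lower with total-count scaling. Hgfac, the protease that activates hepatocyte growth factor, went the other way, with 142 CPM in the control and 185 CPM in the library labelled LKO. This is 1.30-fold (interval 1.28 to 1.33) higher, and 1.74-fold with total-count scaling.

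Vwf, which tethers platelets and carries factor VIII, was the single member called higher. It had 156 and 338 counts, or 1.41 and 2.22 CPM, 1.58-fold (interval 1.30 to 1.92) higher, and 1.56-fold to 2.11-fold over 6 scalings. It was the lowest member per kb, and the call was lost when ratios were taken relative to genes of like length and GC content. Platelet markers were too low to read, with 0 of 6 measured and summed levels of 0.893 and 1.36 CPM. Gp6 was at 0 in both libraries, which allows up to 0.0271 and 0.0197 CPM, the level of 3 counts. Their part in the level of Vwf was not tested.

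**Figure D5:**
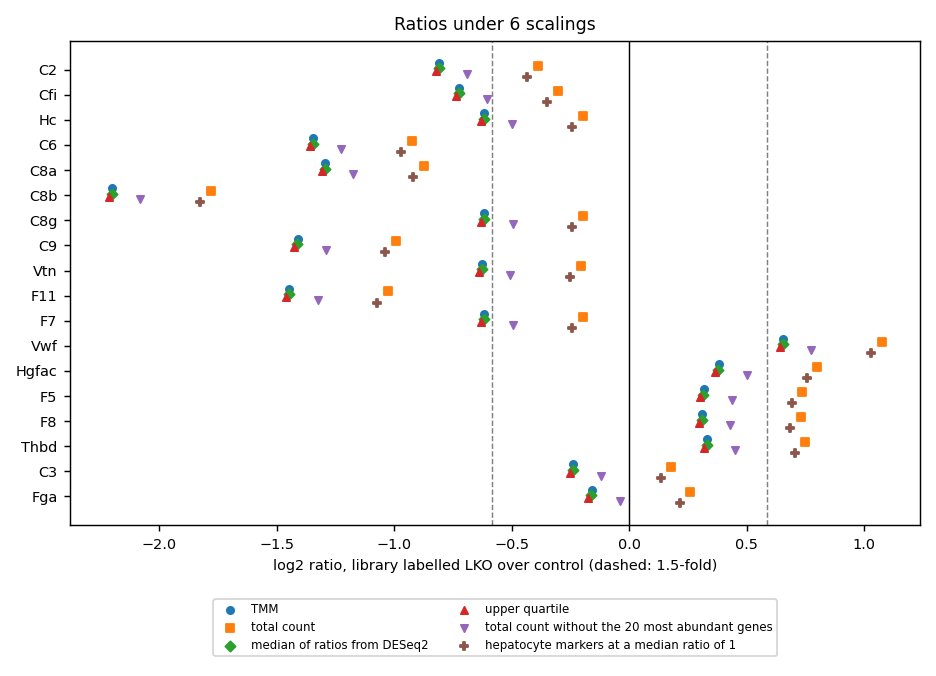
Log2 ratio of the library labelled LKO over control (horizontal axis) under 6 scalings (symbols) for the 12 called genes and 6 others (vertical axis). Dashed lines mark 1.5-fold. C6, C8a, C8b, C9 and F11 stay left of the lower line and Vwf stays right of the upper line under all 6 scalings.

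Partner genes outside the 44 are receptors, regulators and modifying enzymes of the same cascades. Of 30 complement partners 26 were measured. Past 1.5-fold with TMM scaling were 3 on the higher and 4 on the lower side, beside 10.5% and 9.76% of all measured genes. The median log2 ratio was −0.16, or 0.26 with total-count scaling. Susd4, a membrane-bound complement inhibitor, was 2.05-fold (interval 1.93 to 2.18) lower. The macrophage genes Vsig4, C1qa and Fcna, a complement receptor, a chain of C1q and a ficolin, were 1.79-fold, 1.51-fold and 1.68-fold lower. Total-count scaling raises every log2 ratio by 0.42. Vsig4, C1qa and Fcna would then not pass 1.5-fold, while Susd4 would still be just past it on the lower side. Vsig4 and C1qa also stand among the macrophage markers that were lower. On the other side were Cfd, the protease that cleaves factor B, at 1.80-fold higher, and the C5a receptor genes C5ar1 and C5ar2, at 1.82-fold and 1.73-fold from 114 and 142 control counts. The most abundant complement partners, the pore inhibitor clusterin (Clu) and the C1 inhibitor (Serping1), had log2 ratios of −0.24 and −0.14.

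Of 28 clotting partners 19 were measured. Past 1.5-fold with TMM scaling were 2 on the higher side and 1 on the lower, beside 10.5% and 9.76% of all measured genes. The median log2 ratio was −0.12, or 0.30 with total-count scaling. Serpine2, an inhibitor of thrombin, was 7.57-fold (interval 6.58 to 8.75) lower with 1272 and 231 counts. Anxa2, a cell surface receptor of plasminogen, was 2.56-fold (interval 2.41 to 2.72) higher. Thbs1, a platelet and matrix protein gene, was 3.88-fold (interval 2.84 to 5.39) higher from 48 control counts, and its control level alone would not have met the filter. The abundant plasma inhibitors Serpinc1 (antithrombin) and Pzp had log2 ratios of −0.18 and −0.35, which turn positive with total-count scaling. Vitamin K enzymes were split, with Ggcx, the carboxylase, at 0.28 and Vkorc1, which recycles the vitamin, at −0.44. Neither was at least 1.5-fold apart with TMM scaling, and both were chosen from their list after their values were seen. Total-count scaling would raise both log2 ratios by 0.42, which takes Ggcx past 1.5-fold higher and Vkorc1 close to level.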

How the data were processed

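Each of the deposited tables lists unnormalized integer counts of reads by gene symbol for 1 library. Per the labels' protocols, libraries were made with a LEXOGEN mRNA-Seq kit from 500 ng of Trizol-extracted total RNA. The submitters' processing notes name TopHat, edgeR and build mm10. Their versions, the counter, strand use and the treatment of multiply aligned reads were not given in the sources used here. Of the 44 genes, 19 have more than 1 curated RefSeq transcript, so a read may have been counted more than once, which affects levels per kb and narrows intervals.

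TMM factors (edgeR 4.0.16, R 4.3.3) were 0.865 and 1.16. Ratios carry 95% Clopper-Pearson intervals conditional on the summed count. Intervals of ratios between genes are Poisson intervals on the log scale. Intervals cover counting error only, as reads without molecular identifiers are not independent molecules. Interval bounds lay within 1.06 times of the ratio for 41 of the 44 members and within 1.22 times for Vwf, the widest. Genes were called at 1.5-fold where the interval also left out 1. No test was possible with 1 library per group. Positions and transcript lengths (longest protein-coding transcript) are from GENCODE M21, matched by symbol for all 44 genes. The ratio step was tested on simulated counts. Members, role groups and partner lists were chosen with earlier results of these data known. Named partners were up to 4 highest, 4 lowest and the 2 most abundant of each list.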

Additional observations from a re-analysis of the deposited data

How the results depend on the processing

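With total-count scaling the median log2 ratio of the 44 members was 0.18, with 5 at least 1.5-fold higher and 5 lower. With hepatocyte markers at a median ratio of 1 the median was 0.14, again with 5 higher and 5 lower. With totals that leave out the 20 most abundant genes the median was −0.11, with 7 lower. C6, C8a, C8b, C9 and F11 were called lower under all 6 scalings. A mean of at least 10 CPM left 41 members and 0 called higher, and removal of a length and GC trend left 0 higher and 10 lower, without C8g. At 2-fold, 0 were higher and 5 lower with TMM. Under the other scalings, a comparison added at 2-fold after seeing the data, they were 1 higher and 2 lower with total counts, and 1 higher and 3 lower with the hepatocyte markers, and 0 and 5 under the other 3. Among all measured genes, the split of higher against lower at 1.5-fold was 1169 against 1087, and 3866 against 282 with total-count scaling, 3553 against 354 with the hepatocyte markers and 1978 against 896 without the 20 most abundant genes. DESeq2 size factors, the upper quartile, no filter, added counts of 0.5 or 5, and intervals on counts divided by 4 each kept 11 lower and 1 higher. No called member changed sign under any of these settings. No paired analysis was possible because each group has 1 library. Depth limits Vwf and Thbd most, with 156 and 163 counts in the control library.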
